A study of Mus musculus with 15 samples.

Results

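Lsmem2 and Lsmem1 are the genes of the leucine-rich single-pass membrane proteins, and Lsmem2 is the gene that was delivered to muscle in these mice. Both were taken by symbol from the 2 deposited count tables, where they make up 2 of 42396 gene rows in each. The tables come from the tibialis anterior, a fast-contracting muscle at the front of the lower leg, of adult C57BL/6 mice, sampled 2 months after the hindlimb received AAV6, an adeno-associated virus serotype that infects muscle well. C-del animals received virus with a form of LSMEM2 so named, and mock animals received virus with EGFP, a green fluorescent protein, so every animal carried virus. The design compares this form of LSMEM2 with EGFP in skeletal muscle of a living animal, and no group here received another form of LSMEM2. The labels do not say what C-del stands for, which promoter drove the delivered sequence, or how many muscle fibres took it up.

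Lsmem proteins are short proteins that cross a membrane once, and the study's title places LSMEM2 at the neuromuscular junction and links it to mitochondria. The neuromuscular junction is the synapse between a motor nerve and a muscle fibre, and the few nuclei of the fibre that lie under it transcribe junction genes such as those of the acetylcholine receptor. Virus delivered to the whole muscle can reach nuclei far from the synapse as well. In RNA of whole muscle, fewer cells of a type and less RNA per cell cannot be told apart.

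Mock virus gave 4 male and 3 female libraries, and C-del virus gave 4 of each sex. Depth lay between 14297600 and 17744000 counts a library in males and between 9285140 and 12054900 in females. No source states that the libraries are from different animals, so a p-value here measures only how these libraries vary, and that variation may be technical. Sex and table cannot be told apart, because each sex came in its own table. The labels name skeletal muscle while the extraction text names hearts. Of 9 skeletal muscle markers 9 were detected, with a summed level of 113651 to 154369 CPM (a count relative to the depth of its library after correction for composition). Summed over 9 heart markers, levels were 40.03 to 64.03 CPM in males, 96.8 to 129.8 CPM in female mock and 164 to 268 CPM in female C-del, so the female groups did not overlap. Among them Nppa, a heart hormone gene, reached at most 0.145 CPM, Myl7, an atrial light chain gene, was at 0 in 14 of 15 libraries, and Myh6, the heart myosin, was at 2.90 to 7.68 CPM. Myl3, a light chain gene also used by slow skeletal fibres, had a female log2 fold change of 1.02 ± 0.19 (edgeR, adjusted p = 0.120) and passed when all 15 libraries were fitted together (adjusted p = 0.0211). Its part in the results for Lsmem1 and Lsmem2 was not tested. Several libraries stood apart. Summed macrophage markers (16 of 16 detected) were 112, 950 and 460 CPM in female mock libraries 1, 2 and 3 and 77.3 to 157 CPM in female C-del libraries. In male C-del libraries 1 to 4 they were 260, 283, 77.6 and 102 CPM, against 98.8 to 118 CPM in male mock. Summed tendon markers (10 of 10) were 406 to 588 CPM in male mock and 212 to 352 CPM in male C-del. Summed fibroblast markers (6 of 6) were 2073 and 1572 CPM in male mock libraries 3 and 4, 908 and 871 CPM in libraries 1 and 2, and 883 to 1129 CPM in male C-del.

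Lsmem2 lies on the minus strand of chromosome 9 from 107592626 to 107597990 in the RefSeq annotation of GRCm38.p6. RefSeq lists it as protein coding, whereas the GENCODE annotation of the same build lists it as a long intergenic RNA of 3 exons from 107593841 to 107597075, with no coding sequence. Lsmem1 lies on the minus strand of chromosome 12 from 40176386 to 40199315 and has 2 GENCODE transcripts. Each gene lies next to a member of another family pair, Ifrd2 beside Lsmem2 and Ifrd1 beside Lsmem1, which are genes of interferon-related developmental regulators. The 250 bases before the start site of each gene are shown because they hold a word that both genes share. The start site used for Lsmem2, 107597075, lies inside its RefSeq span and is where the GENCODE gene starts. They are RefSeq windows of GRCm38.p6, read 5′ to 3′ on the strand of the gene, chr9:107597076-107597325 for Lsmem2 and chr12:40199316-40199565 for Lsmem1. Capitals mark the longest word that both windows hold, CTAAATATAG, and, in Lsmem2, the word CCGGAA.
Lsmem2: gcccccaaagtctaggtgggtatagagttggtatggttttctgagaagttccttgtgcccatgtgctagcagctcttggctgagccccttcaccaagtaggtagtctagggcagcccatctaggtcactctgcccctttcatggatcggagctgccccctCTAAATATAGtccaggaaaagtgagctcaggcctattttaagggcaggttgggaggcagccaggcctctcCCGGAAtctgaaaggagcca
Lsmem1: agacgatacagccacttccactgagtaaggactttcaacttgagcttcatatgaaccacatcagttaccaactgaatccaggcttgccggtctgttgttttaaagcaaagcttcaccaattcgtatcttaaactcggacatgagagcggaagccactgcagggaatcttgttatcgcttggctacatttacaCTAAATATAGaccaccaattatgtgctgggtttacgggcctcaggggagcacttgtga
The shared word CTAAATATAG has the form known as a MEF2 site, after a family of muscle transcription factors. It lies 90 to 81 bases before the start site of Lsmem2 and 58 to 49 bases before that of Lsmem1. In Lsmem2 the word, at 107597156 to 107597165, lies inside the RefSeq span of the gene and is upstream of the GENCODE start alone. The start site used for Lsmem1, 40199315, is that of the GENCODE transcript Lsmem1-201. The first exon of the other transcript, Lsmem1-202, spans 40199207 to 40199490. The word, at 40199364 to 40199373, therefore lies inside that exon and is not upstream of both transcripts. Searched on both strands, it was in 17 of 32851 windows of this length (0.0517%), which belong to 16 of 27025 genes. It was picked after both windows had been read, so its rarity is no test. The other genes with the word include Klhl41, a gene of the sarcomere-linked kelch family, Mybpc3, the cardiac myosin-binding protein C gene, and Alas1, the first enzyme of haem synthesis. The rest are Per1, Tcea3, the olfactory receptor gene Olfr481, the taste receptor gene Tas2r139, and genes with predicted-gene or clone names. CCGGAA, known as the N-box in genes transcribed under the junction, lies 20 to 15 bases before the start site of Lsmem2, was not found in the Lsmem1 window, and was in 12% of all windows. The general E-box word CANNTG, which is bound by factors of the MyoD family, was found 1 time for Lsmem2 and 3 times for Lsmem1, with 66.2% of windows holding it. These matches describe letters in a window and say nothing about binding.

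The first question is how much delivered Lsmem2 RNA each muscle held, since it checks the labels and gives the range of doses. Male mock libraries 1 to 4 had 29.7, 29.4, 29.1 and 28.5 CPM of Lsmem2, and female mock libraries 1 to 3 had 30.8, 29.8 and 32.7 CPM. Male C-del libraries 1 to 4 had 481, 2352, 1863 and 1285 CPM. Female C-del libraries 1 to 4 had 1359, 2115, 1681 and 2701 CPM. The lowest C-del library, male library 1, was 16.5 times the male mock mean, and the highest, female library 4, was 86.8 times the female mock mean, so the groups did not overlap in either sex. Lsmem2 took 0.0488% to 0.262% of all counts in C-del libraries and 0.00287% to 0.00320% in mock libraries.

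**Figure D1:**
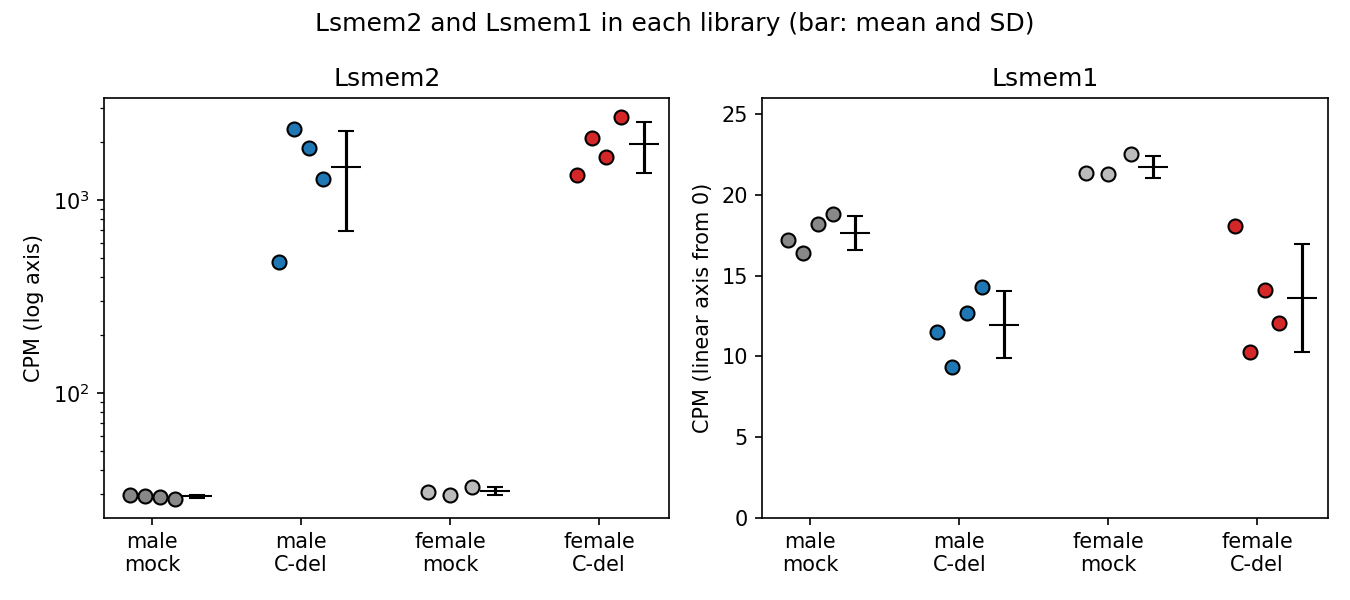
Level of Lsmem2 (left, CPM on a log axis) and Lsmem1 (right, CPM on a linear axis) in each of the 15 libraries, with the mean and SD of each group as bars. Lsmem2 lies at 28.5 to 32.7 CPM in mock and at 481 to 2701 CPM with C-del, and each C-del library lies below each mock library of its sex for Lsmem1.

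In males the mock mean was 29.2 ± 0.542 CPM and the C-del mean 1495 ± 805 CPM (SD, n = 4 each). Lsmem2 was higher with C-del by 5.68 ± 0.57 on the log2 scale in males (SE; edgeR, adjusted p = 0.00223), where 5.8% of 14543 genes were called higher. In females the means were 31.1 ± 1.43 CPM (SD, n = 3) and 1964 ± 581 CPM (SD, n = 4). The difference was 5.98 ± 0.27 (SE; edgeR, adjusted p = 3.05e-05), and Lsmem2 was 1 of 2 genes called higher among 14220 (0.0141%). An exact two-sided permutation test of the difference in mean log2 CPM gave p = 0.0286 in each sex, the smallest value each design allows. Without male mock libraries 3 and 4 the male difference was 5.66 (edgeR, adjusted p = 0.0586). Without female mock libraries 2 and 3, which leaves 1 mock library assumed to vary like the others, the female difference was 6.00 (edgeR, adjusted p = 0.226). Over both sexes the average difference was 5.83 ± 0.34 (edgeR, adjusted p = 2.05e-06), where 2.42% of 15272 genes were called higher. The female effect less the male effect was 0.30 ± 0.55 (SE; edgeR, adjusted p = 0.810), where 0.354% of genes differed. Counts at this gene add the mouse transcript to reads of the delivered sequence, and the share of each is not known from them.

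The measured Lsmem2 level was even between mock libraries, and the level with C-del was not. In male mock libraries the highest Lsmem2 value was 1.04 times the lowest, a coefficient of variation (SD over mean) of 1.86%, below the median of 8.47% over all genes tested. Female mock libraries had a coefficient of 4.61%, against a median of 19.7%. The mock values rest on 281 to 460.5 counts a library. At such counts, coefficients this small cannot show how even the gene was between muscles. Among male C-del libraries the highest was 4.89 times the lowest and the coefficient was 53.8%, higher than in 98.9% of genes. Among female C-del libraries the highest was 1.99 times the lowest and the coefficient was 29.6%, higher than in 91.0% of genes. Male C-del libraries 1 and 2, the lowest and the highest in Lsmem2, were the 2 with high macrophage markers.

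Lsmem1, the relative that was not delivered, was lower with C-del in males. Male mock libraries 1 to 4 had 17.2, 16.4, 18.2 and 18.8 CPM, and male C-del libraries 1 to 4 had 11.5, 9.34, 12.6 and 14.3 CPM, so the groups did not overlap. The share of all genes without overlap is not given here for either sex. These male C-del levels were 65.3%, 53.0%, 71.7% and 81.0% of the mock mean, and they rest on 165 to 246 counts per library. The means were 17.6 ± 1.07 and 11.9 ± 2.08 CPM (SD, n = 4 each). Lsmem1 fell 1.48-fold in males, a log2 difference of -0.56 ± 0.11 (edgeR, adjusted p = 0.00437), where 5.37% of genes were called lower, and it ranked 196 among the lower genes by p. The exact two-sided permutation test gave p = 0.0286, the smallest it can give with 4 libraries a group. Without male mock libraries 3 and 4, those with the highest summed fibroblast markers, the log2 fold change was -0.49 (edgeR, adjusted p = 0.0667).

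In females the Lsmem1 values did not overlap either, but the gene did not pass the test over all genes. Female mock libraries 1 to 3 had 21.4, 21.3 and 22.5 CPM. Female C-del libraries 1 to 4 had 18.04, 10.3, 14.1 and 12.1 CPM, which were 83.1%, 47.3%, 64.9% and 55.6% of the mock mean and rest on 112 to 202 counts. The log2 fold change was -0.67 ± 0.18 (SE; edgeR, unadjusted p = 0.00399, adjusted p = 0.186), with 0% of 14220 genes called lower by edgeR, 1008 lower at an unadjusted p under 0.05, and 376 genes called in either direction by DESeq2. The exact two-sided permutation test gave p = 0.0571, where 0.0286 is the smallest possible. In the fit of all 15 libraries the female contrast of Lsmem1 was -0.67 (edgeR, adjusted p = 0.0219), where 3.37% of genes were called lower. The 3 female mock libraries, which differed in summed lymphocyte markers from 36.5 to 4726 CPM, lay within 1.06-fold of each other in Lsmem1.

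Averaged over both sexes, Lsmem1 fell 1.53-fold, a log2 difference of -0.62 ± 0.11 (edgeR, adjusted p = 0.00326), where 1.99% of 15272 genes were called lower, and it ranked 22 among those by p. The effect in females less that in males was -0.12 ± 0.21 (edgeR, adjusted p = 0.807), with an interval of 2 SE from -0.54 to 0.31. Leaving out 1 library at a time, the average ran from -0.70 to -0.56, and it passed in 15 of 15 such fits. Without all 4 mock libraries that stood apart it was -0.57 (edgeR, adjusted p = 0.0845), a setting chosen after seeing the data. The spread of Lsmem1 was wider with C-del than with mock. Its coefficient of variation was 17.4% against 6.08% in males and 24.5% against 3.16% in females. These coefficients rest on 3 or 4 libraries a group and 112 to 271 counts a library. Counting noise was not separated from them, and the difference in spread was not tested.

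**Figure D2:**
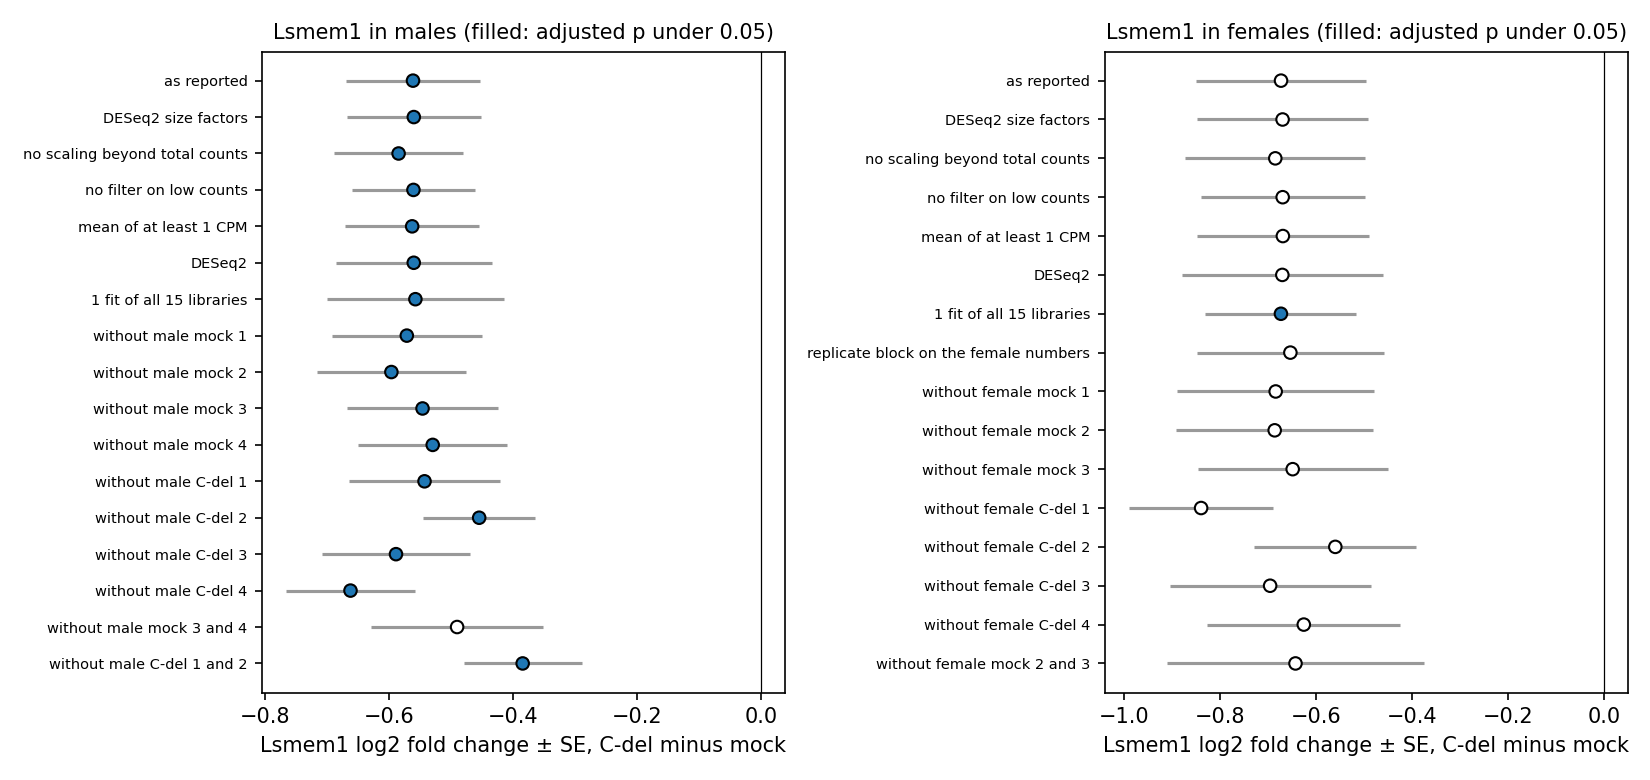
Log2 fold change of Lsmem1 with its SE (x axis) under each setting (y axis), in males on the left and females on the right, with filled points where the adjusted p is under 0.05. Every point is below 0; the male value runs from -0.66 to -0.38 and the female value from -0.84 to -0.56.

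The neighbours of each gene show whether counts of nearby genes moved as well. Delivered Lsmem2 came on a virus and not from its own place on the chromosome, so few calls nearby are no test of the delivery. Of 19 genes within 100 kb of Lsmem2, 15 were tested. In males 1 was called higher, against 5.8% of all genes, and 0 were called lower, against 5.37%. It was Slc38a3, a glutamine transporter gene 53163 bases away, at 0.25 ± 0.073 on the log2 scale (edgeR, adjusted p = 0.0424), and its call was lost in 9 of 16 alternatives, among them leaving out male mock library 1 or 2 or any 1 of the male C-del libraries (largest adjusted p of 0.106 for these). In females 0 of the 15 were called, against 0.0141% of all genes. Ifrd2 overlaps the end of Lsmem2 by 413 bases on the other strand. Its log2 fold changes were 0.065 ± 0.064 in males and 0.0015 ± 0.11 in females (edgeR, adjusted p = 0.568 and 0.996).

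Sema3b, a secreted semaphorin gene on the same strand whose RefSeq span overlaps the first 317 bases of Lsmem2, was also read library by library. It had 10.98, 11.7, 14.7 and 13.4 CPM in male mock and 13.5, 18.8, 16.02 and 13.1 CPM in male C-del libraries 1 to 4. In females it had 13.8, 13.3 and 15.1 CPM with mock and 18.3, 20.3, 18.5 and 22.1 CPM with C-del. The groups overlapped in males and did not overlap in females, and the share of all genes without overlap is not given here. The log2 fold change of Sema3b was 0.28 ± 0.12 in males and 0.49 ± 0.12 in females (edgeR, adjusted p = 0.172 and 0.169), and the average of 0.39 ± 0.092 passed (edgeR, adjusted p = 0.0257) and was lost in 8 of 24 alternatives, among them leaving out male mock library 1 or 2, male C-del library 2 or 3, or female C-del library 2 or 4 (largest adjusted p of 0.0607 for these). Its gain was 0.185% of the gain of Lsmem2 in males and 0.297% in females. In the deposited estimated counts, the values of Lsmem2 and Sema3b were both not multiples of 0.5 in the same 8 of 15 libraries, while their sum was a multiple of 0.5 within 0.02 in 15 of 15. Reads of these 2 overlapping genes therefore cannot be told apart with certainty. With Sema3b counts added to those of Lsmem2, a setting chosen after seeing the data, the log2 fold change was 5.17 in males and 5.45 in females.

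**Figure D3:**
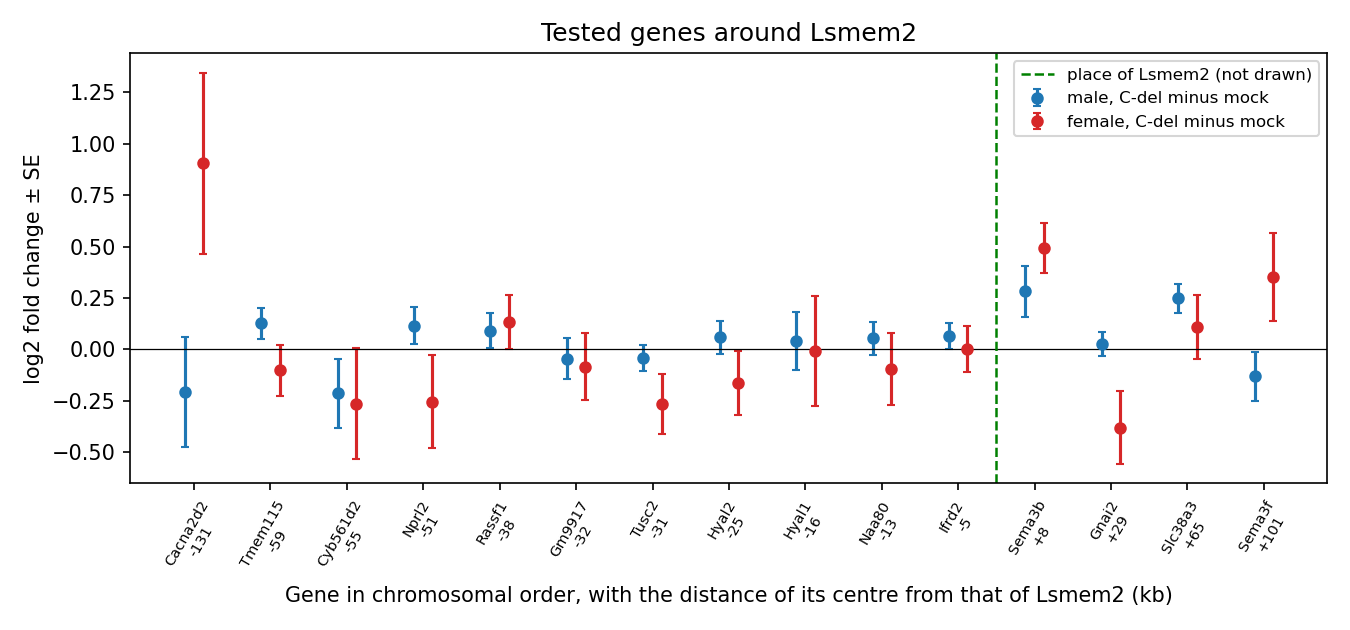
Log2 fold change with SE (y axis) of the 15 tested genes within 100 kb of Lsmem2, in chromosomal order (x axis, with the distance in kb between gene centres), in males and females. Lsmem2 itself, at 5.68 and 5.98, is off the scale and not drawn; Sema3b is at 0.28 and 0.49.

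Around Lsmem1, 2 of 5 genes within 100 kb were tested. Ifrd1, 3813 bases away, had log2 fold changes of 0.074 ± 0.082 in males and 0.092 ± 0.19 in females (edgeR, adjusted p = 0.624 and 0.866). Scin, an actin-severing gene 42157 bases away, had 3.62, 4.52, 3.88 and 3.19 CPM in male mock and 1.42, 1.70, 1.94 and 1.86 CPM in male C-del libraries. It fell 2.20-fold in males (log2 fold change -1.14 ± 0.17; edgeR, adjusted p = 0.000628). In females its log2 fold change was -0.45 ± 0.29 (edgeR, adjusted p = 0.576). The gene next to Lsmem1 therefore did not pass while the gene farther off did, and nothing was tested about a link between Scin and Lsmem1.

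The Lsmem2 level differed enough between C-del muscles to ask whether other genes followed it. A slope on log2 Lsmem2 was fitted over the 8 C-del libraries with the table as a term, so that a slope is the log2 change of a gene per doubling of Lsmem2. Of 14412 genes 0 passed with edgeR (0%), 189 had a positive and 242 a negative slope at an unadjusted p under 0.05, where 721 in all would be expected by chance on average, and DESeq2 called 0. Leaving out male C-del library 1, the lowest in Lsmem2, gave 3 genes, and leaving out male C-del library 2, the highest in males, gave 14. Without both of these libraries, which had high macrophage markers, 8 genes passed.

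**Figure D4:**
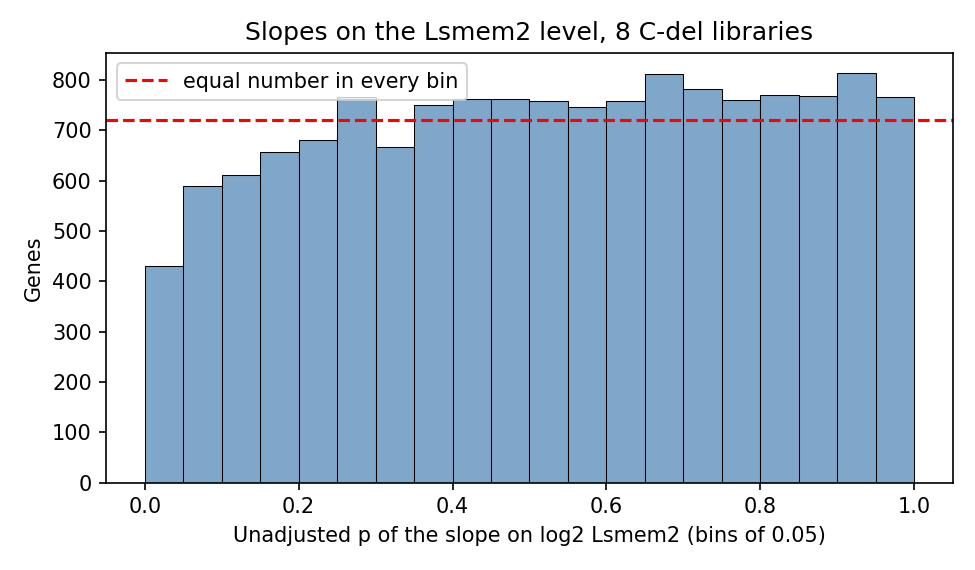
Number of genes (y axis) by the unadjusted p of their slope on log2 Lsmem2 in the 8 C-del libraries (x axis, bins of 0.05), with a dashed line at an equal number in every bin. The bin under 0.05 holds 431 genes, the fewest of all bins.

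Lsmem1 was among the genes without a slope that passed. Its slope was -0.15 ± 0.13 (SE; edgeR, unadjusted p = 0.280). In male C-del libraries, the 3 with 1285, 1863 and 2352 CPM of Lsmem2 had 14.3, 12.6 and 9.34 CPM of Lsmem1, and the library with 481 CPM of Lsmem2 had 11.5 CPM. In female C-del libraries, in rising order of Lsmem2, Lsmem1 had 18.04, 14.1, 10.3 and 12.1 CPM. Lsmem1 was thus highest in the female library with the least Lsmem2, whereas in males the library with the least Lsmem2 was second lowest in Lsmem1. Its slope was -0.059 ± 0.12 in males alone and -0.68 ± 0.22 in females alone (edgeR, adjusted p = 0.286). Over the 8 C-del libraries, centred by table, Pearson's r between the 2 genes was -0.386 (permutation p = 0.330, adjusted p = 0.660) and Spearman's rho was -0.429 (permutation p = 0.278, adjusted p = 0.556). Without male C-del libraries 1 and 2, the 2 farthest from the median, r was -0.793 (n = 6). In the 7 mock libraries, where both are mouse genes alone, r was -0.00441 (permutation p = 1, adjusted p = 1) and rho was -0.143 (permutation p = 0.757, adjusted p = 0.757). Within the tables r was -0.245 in male and -0.804 in female C-del libraries, and -0.816 in male and 0.958 in female mock libraries, from 3 or 4 libraries each. Leaving out the 2 mock libraries farthest from the median, female 2 and 3, leaves the male value. These were the 2 relations computed, and neither passed.

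Slc25a25, the gene of a mitochondrial ATP-Mg and phosphate carrier, was the other gene called in both tables, and its slope on Lsmem2 did not pass. Male C-del libraries 1 to 4 had 183, 180, 216 and 218 CPM, which is 3.90, 3.82, 4.60 and 4.64 times the mock mean. The library with the least Lsmem2 and the one with the most in males thus had nearly the same level. Female C-del libraries 1 to 4 had 68.1, 85.2, 98.7 and 108.7 CPM, or 2.87, 3.59, 4.16 and 4.58 times the mock mean. In females the lowest and highest of these were also the lowest and highest in Lsmem2. The slope of Slc25a25 was 0.11 ± 0.10 (SE; edgeR, unadjusted p = 0.333, adjusted p = 0.99998), and ran from 0.048 (without female C-del library 1) to 0.21 (without male C-del library 2) leaving out 1 library. It was 0.035 ± 0.066 in males alone and 0.52 ± 0.19 in females alone (edgeR, unadjusted p = 0.0297, adjusted p = 0.471 in females). Sema3b had a slope of 0.20 ± 0.065 (edgeR, unadjusted p = 0.00839, adjusted p = 0.99998), which ran from 0.14 (without male C-del library 2) to 0.42 (without male C-del library 1).

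**Figure D5:**
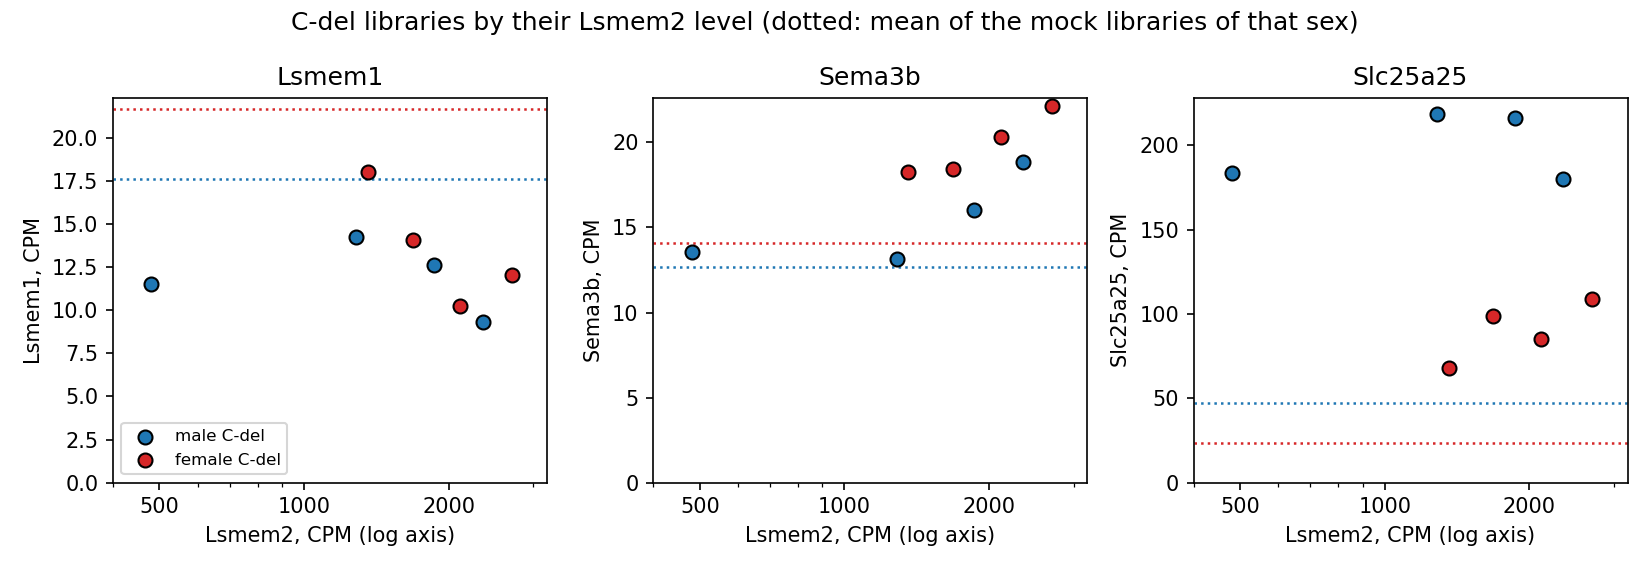
Levels of Lsmem1, Sema3b and Slc25a25 (y axes, CPM) against Lsmem2 (x axes, CPM on a log axis) in the 8 C-del libraries, with dotted lines at the mock mean of each sex. Slc25a25 is at 183 CPM in the male library with 481 CPM of Lsmem2 and at 180 CPM in the male library with 2352 CPM.

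The slopes with the smallest p are given as values, since none passed. The positive ones were Sim1, a neuronal transcription factor gene, at 0.40 ± 0.095, and Ankrd1, a stretch-responsive sarcomere gene, at 0.23 ± 0.056. They were followed by the metallothionein gene Mt1 at 0.29 ± 0.071, the calcium channel subunit gene Cacna2d4 at 0.21 ± 0.053 and the lipid kinase gene Pi4k2a at 0.20 ± 0.050. The negative ones were the lactate dehydrogenase gene Ldhb at -0.24 ± 0.054, the hypoxia factor gene Hif1a at -0.21 ± 0.049, Lmbr1 at -0.20 ± 0.050, the matricellular gene Ccn3 at -0.46 ± 0.12 and Guf1, a mitochondrial translation factor gene, at -0.16 ± 0.043. Sim1 was at 4.25 CPM in male C-del library 1 and at 8.15 to 8.42 CPM in the other male C-del libraries, and its slope was 0.15 without that library. Hif1a was at 30.2 CPM there against 22.5 to 22.8 CPM, and its slope ran from -0.25 to -0.18 leaving out 1 library at a time. The slope of Ldhb passed in 1 of 8 such fits, at -0.34 without male C-del library 2 (edgeR, adjusted p = 0.00595), and was -0.088 without male C-del library 1.

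Each table alone gave a different count. In the 4 male C-del libraries 0 of 13881 genes followed Lsmem2. At an unadjusted p under 0.05 were 250 genes, fewer than the 694 expected by chance on average, so this fit cannot show that no gene followed it. Lsmem2 spanned the wider range in males, but its lowest and highest libraries there both had high macrophage markers. In the 4 female C-del libraries 75 of 13220 passed (0.567%), 44 with a positive and 31 with a negative slope. At an unadjusted p under 0.05 were 1190 genes, where 661 would be expected by chance on average. Of these 75 genes, 74 were tested in males, where 0 passed and 50 had a slope of the same sign. Tnfrsf12a, the receptor of the cytokine TWEAK, had the smallest p in females, at 10.3, 34.8, 20.3 and 64.9 CPM in female C-del libraries 1 to 4. Its slope was 2.60 ± 0.14 (edgeR, adjusted p = 2.89e-06), against 0.024 ± 0.075 in males, where its 4 libraries had 63.6, 69.5, 60.1 and 52.6 CPM. Flnc, the gene of the muscle filamin, had a female slope of 1.16 ± 0.10 (edgeR, adjusted p = 0.000429), and its level ran from 826 CPM in library 1 to 1876 CPM in library 4. Igfbp5, an insulin-like growth factor binding protein gene, had a slope of -1.50 ± 0.11 (edgeR, adjusted p = 7.09e-05), from 510 CPM in library 1 to 179 CPM in library 4. These 3 genes were chosen after their values were seen. Summed macrophage and fibroblast markers were also highest in female C-del library 1, at 157 and 1473 CPM against 77.3 to 88.1 and 678 to 961 CPM in the other 3, and their part in these slopes was not tested.

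The genes called in males were also read by their slope in the female C-del libraries, a comparison that shares no library. Of 814 genes higher in males, 562 had a positive slope on Lsmem2 in females (69.0%), against 49.0% of all 13200 genes with both values. Of 754 genes lower in males, 483 had a negative slope (64.1%), against 51.0% of all genes. The median slopes were 0.0997 and -0.0759, against -0.0047 over all genes. Leaving out 1 female C-del library at a time moved these shares to between 59.8% and 71.1% and between 54.0% and 68.2%. Genes are not independent replicates, and no test was made of these shares. Cell type markers moved in both comparisons. The median of tendon markers was -0.93 in the male contrast and -0.49 in the female slope, and that of fibroblast markers was -0.20 and -0.74. For macrophage markers the medians had opposite signs, 0.83 and -0.94. The part of cell composition in these shares was not tested.

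The genes whose levels ran most like those of Lsmem1 were ranked by Pearson's r of log2(CPM + 1), centred on each of the 4 groups, over 15 libraries and 13938 genes, as a description. The highest were Ssbp2 (r of 0.878), the circadian repressor gene Bhlhe41 (0.875), Trim35 (0.830), the muscle lysine methyltransferase gene Mettl21c (0.822) and Pcdhga3 (0.820). The lowest were the formin gene Diaph1 (-0.848), the kinase gene Mknk2 (-0.847, with a rho of -0.621) and Pwp2 (-0.845). Ssbp2 had 11.3, 9.05, 12.1 and 12.3 CPM in male C-del libraries 1 to 4 and 17.4, 11.3, 14.3 and 10.7 CPM in female ones. Like Lsmem1, it was lowest in male C-del library 2 and highest in female C-del library 1 within those groups. Over the 8 C-del libraries centred by table (13738 genes), those most like Lsmem2 were the metal-response factor gene Mtf1 (0.989), Thoc6 (0.977), the Wnt pathway gene Axin1 (0.974), B9d1 (0.965) and Cacna2d4 (0.955), and the least like it were Fubp1 (-0.976), Nhlrc1 (-0.976) and Guf1 (-0.974). Libraries share depth and composition, and no p is given for values picked from so many genes.

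Junction genes and genes of mitochondrial organisation were read as lists because the study's title names both. Of 36 neuromuscular junction genes 33 were tested. In males 1 was higher and 1 lower, against 5.8% and 5.37% of all genes, and the median log2 fold change was -0.013, against -0.0047 over all genes. Musk, the receptor kinase that clusters acetylcholine receptors, had 24.0, 23.6, 19.3 and 20.9 CPM in male mock and 36.2, 37.5, 34.7 and 30.7 CPM in male C-del libraries. Musk rose by 0.66 ± 0.080 on the log2 scale in males (edgeR, adjusted p = 0.000133), and its slope on Lsmem2 was 0.036 ± 0.085. Gfpt1, whose enzyme opens hexosamine synthesis, fell by 0.32 ± 0.052 in males (edgeR, adjusted p = 0.00145), and lost its call when all 15 libraries were fitted together (adjusted p = 0.143), where 1.09% of genes were lower. In females 0 of 33 junction genes passed with edgeR, against 0.0141% of all genes. At an unadjusted p under 0.05 were 5 of the 33, of which 3 were higher, against 1692 of all 14220 genes. The smallest p values belonged to the acetylcholine receptor subunit gene Chrna1 and to Lama5. Their log2 fold changes were -0.53 ± 0.20 and 0.49 ± 0.20 (edgeR, adjusted p = 0.319 and 0.361). In the average 1 of 33 was higher, Musk at 0.49 ± 0.099 (edgeR, adjusted p = 0.00972), against 2.42% of all genes, and 0 of 33 followed Lsmem2 with edgeR (1 lower at an unadjusted p under 0.05). Of all 14412 genes 0 followed it, with 242 lower at an unadjusted p under 0.05.

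Of 33 genes of mitochondrial organisation, 33 were tested. In males 5 were higher and 0 lower, against 5.8% and 5.37% of all genes, with a median log2 fold change of 0.071 against -0.0047 over all genes. They were the inner membrane gene Letm1 (0.22; edgeR, adjusted p = 0.00503), the mitochondrial transport gene Rhot2 (0.24; 0.00782), the cristae gene Chchd3 (0.19; 0.00880), the mitochondrial fusion gene Miga2 (0.24; 0.0166) and the prohibitin gene Phb2 (0.17; 0.0364), which was named after its values were seen. Without male mock library 1, 3 of the 33 passed. Leaving out 1 library at a time, 1100 to 1526 of all genes were called in males. When all 15 libraries were fitted together, 0 of the 33 passed in males (1.4% of all genes were higher there). Without male mock libraries 3 and 4, 0 of 33 passed, and the count of all genes called in that setting is given below. In females 0 of 33 passed with edgeR, against 0.0141% of all genes. At an unadjusted p under 0.05 were 0 of the 33, against 1692 of all 14220 genes. The average called Rhot2 (0.23 ± 0.059, edgeR, adjusted p = 0.0391), where 2.42% of all genes were higher. Of the 33, 0 followed Lsmem2 and 1 had an unadjusted p under 0.05, against 0 and 431 of all 14412 genes. Of 8 genes of other short single-pass membrane proteins of muscle, 6 were tested. None of the 6 passed with edgeR in males, females, the average or the slope, with 1, 2, 2 and 0 at an unadjusted p under 0.05. Of all genes, 5.8% were called higher and 5.37% lower in males, and 0.0141% were called in females. In the average 2.42% were higher and 1.99% lower, and 0% passed in the slope. At an unadjusted p under 0.05 were 1692 of 14220 genes in females and 431 of 14412 in the slope. At that threshold 1900 of 14543 genes were higher and 1874 lower in males, and 1358 of 15272 were higher and 1646 lower in the average. In males the smallest p values belonged to Fxyd1, a sodium pump regulator gene, and Sln, the sarcolipin gene, at log2 fold changes of 0.11 ± 0.050 and -0.47 ± 0.25 (edgeR, adjusted p = 0.191 and 0.248). In females they belonged to the myoregulin gene Mrln and the phospholamban gene Pln, at -0.44 ± 0.14 and 0.67 ± 0.24 (edgeR, adjusted p = 0.261 and 0.306).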

How the data were processed

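Libraries of mouse tibialis anterior RNA were stranded, per the labels' protocols. The deposited values are estimated counts (expected counts) per gene without normalisation, and in each library 14.6% to 17.3% of them were not whole (tolerance 0.001). The submitters' processing notes name featureCounts 2.0.0 and the build GRCm38.p6. Which aligner, options and strand setting the authors used is not given in the sources used here. The test was planned for whole counts, so the estimated counts were rounded and that test kept. Female columns carry the title numbers; male columns show only the group, so their numbers pair nothing. Libraries of a group differed by more than sampling noise (chi-square per gene of at least 2.48).

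The members and lists were chosen with earlier results of these data known. Genes were kept by filterByExpr (minimum count 10), scaled with TMM and tested with edgeR 4.0.16 (robust quasi-likelihood, R 4.3.3, limma 3.58.1), with a threshold of 0.05 on Benjamini-Hochberg adjusted p over all genes. Each sex was fitted alone, and the average and the difference came from a fit of all 15 libraries. The slope fit used log2 CPM of Lsmem2, with table as a term, over C-del libraries, so Lsmem2 itself has no slope. Each SE was taken as the effect over the root of its F statistic. Coefficients of variation, likeness, promoter words and groups that do not overlap are descriptions. For no gene is the share of all genes without overlap given beside it. RefSeq windows of 250 bases matched 2 of 2 genes. Named are Lsmem1 and Lsmem2, up to 4 passing genes of a list (or the 2 with the smallest p), the nearest and the passing neighbours, the 5 smallest p of each sign for the slope, and the 5 highest and 3 lowest for likeness, with a mean of at least 1 CPM and no predicted-gene or clone name. Alternatives were DESeq2 1.42.0 and its size factors, other filters, 1 fit of all libraries, a replicate block, further covariates and leaving out libraries. The scripts were tested on simulated data. Plots used Python 3.11.15 and matplotlib 3.10.9.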

Additional observations from a re-analysis of the deposited data

Results flagged for a closer look

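Of 78 groups of 4 libraries checked, 3 held a library whose gap to the nearest of the others was large for the range of the group; chance gives such a gap in about 1 in 20 groups. Hif1a, the hypoxia factor gene, was at 30.2 CPM in male C-del library 1, against 22.5 to 22.8 CPM in the other 3. Sim1 was at 4.25 CPM in the same library, against 8.15 to 8.42 CPM. Both genes were named for their slope on Lsmem2, and this library had the lowest Lsmem2 of all C-del libraries. Hif1a was also at 28.0 CPM in male mock library 4, against 28.6 to 28.7 CPM in the others, a small difference among values that lie close together.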

How the results depend on the processing

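Lsmem2 kept its direction in every setting, and its female minus male difference did not pass in any of 25. Lsmem1 stayed below 0 in every setting; the male call held in 15 of 16, the average in 23 of 24, and the female contrast passed in 1 of 15. Leaving out 1 library, Lsmem2 ran from 5.37 to 5.98 in males, 5.78 to 6.12 in females and 5.68 to 5.98 on average, with a difference of 0.0012 to 0.60. Lsmem1 ran from -0.66 to -0.45, from -0.84 to -0.56 and from -0.70 to -0.56, with a difference of -0.28 to -0.0016 and a slope of -0.67 to -0.049.

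Lsmem1 in females was -0.67 in 1 fit of all libraries (adjusted p = 0.0219). Without male mock libraries 3 and 4, Lsmem2 in males was 5.66 (adjusted p = 0.0586) and Lsmem1 -0.49 (adjusted p = 0.0667). Without female mock libraries 2 and 3, Lsmem2 in females was 6.00 (adjusted p = 0.226, 1 mock library left). Without these 4 libraries, chosen after seeing the data, the average of Lsmem1 was -0.57 (adjusted p = 0.0845). Fewer mock libraries entered these fits.

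Genes called in females numbered 16 with no filter, 376 with DESeq2, 777 in 1 fit, 4 without female mock 2 and 3, and 1 to 1050 leaving out 1 library (1050 without mock 1). In males they numbered 380 in 1 fit, 767 without mock 3 and 4, and 1100 to 1526 leaving out 1 library. Genes that followed Lsmem2 numbered 8 without male C-del 1 and 2, 75 in females alone, and 0 to 14 leaving out 1 library. The cause was not tested.

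The mock correlation was 0.0629 with DESeq2 size factors, 0.251 without scaling and 0.0960 on linear CPM, and -0.640 to 0.370 leaving out 1 library; the C-del correlation was -0.852 to -0.150. Values near 0 changed sign: Ifrd2 in females (-0.014 without scaling, -0.069 with the replicate block, -0.055 without mock 2 and 3, -0.073 to 0.056 leaving out 1 library), its average (-0.0012 with the block, -0.032 without the 4 mock libraries, -0.00048 to 0.064 leaving out 1), Ifrd2 in males (-0.00034 without mock 3 and 4), Ifrd1 in females (-0.0010 with the block, -0.077 to 0.28 leaving out 1) and the slope of Ankrd1 (-0.036 in females alone).

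Female numbers gave no sign of pairing. Same-numbered deviations correlated at -0.134, -0.0078 and -0.041, and those with unlike numbers at -0.207 to 0.225. So few libraries cannot exclude a pairing, which the labels do not state. With the replicate block Lsmem2 in females was 5.76 and Lsmem1 -0.65 (adjusted p = 0.723), the average of Lsmem1 was -0.60, and 2 genes were called; the calls of Lsmem1 and Lsmem2 did not change, while the average of Sema3b lost its own (adjusted p = 0.0534). Male numbers allow no such fit. Depth limits the precision of Lsmem1, at 112 to 271 counts a library.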

Other observations

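Of the 16 genes with CTAAATATAG in their promoter window, 7 were tested in males, where 5.8% of all genes were called higher and 5.37% lower. Per1, a clock gene, rose by 0.68 on the log2 scale in males (edgeR, adjusted p = 3.82e-06) and Alas1 rose by 0.37 (adjusted p = 0.00575), whereas Lsmem1 and the predicted gene Gm23952 fell (log2 fold change -0.56 and -0.64; adjusted p = 0.00437 and 0.000483). Klhl41 and Tcea3 did not pass (0.053 and -0.17; adjusted p = 0.715 and 0.0836). The seventh is Lsmem2, the delivered gene. Genes with the word thus moved in both directions, and they were named after the word had been seen. In females Lsmem2 alone of the 7 passed, where only 2 of all 14220 genes did (0.0141%). Per1 was at 0.65 and Alas1 at 0.15 there (edgeR, adjusted p = 0.171 and 0.628).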
